A study of Caenorhabditis elegans with 52 samples.

Results

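This comparison sets adult worms of the genotype puf-8; lip-1 against wild-type worms of the strain N2, both held in the MEK inhibitor U0126 at 100 uM for 18 h. Its members are the 4 libraries, 2 of each genotype, whose labels give those genotypes, that drug and that time, out of 52 libraries in the series. Every gene in their tables was considered, and 16462 of the 45461 listed were expressed highly enough to be tested. The question is how far the transcriptome of the drug-treated double mutant resembles that of the drug-treated wild type. The same genotypes held for 18 h in the vehicle DMSO, again 2 libraries each, are used beside them.

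The series profiled puf-8; lip-1 (24 libraries), puf-8 fbf-1 (10 libraries) and N2 (18 libraries) over a time course in drug or vehicle. The worms were young adult hermaphrodites, raised from synchronized larvae on plates and then moved to liquid medium with bacterial food and the drug or vehicle. RNA was polyA RNA of whole worms, so that germline and somatic tissues were read together, and fewer cells of a type and less RNA per cell cannot be told apart. The sources used here do not give the alleles, the growth temperature or whether replicates were separate cultures. The p-values therefore reflect the spread of these libraries alone, which may be technical.

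As background, a hermaphrodite germline of Caenorhabditis elegans first makes sperm and then switches to oocytes. FOG-1, an RNA-binding protein, and FOG-3 specify the sperm fate, and the RNA-binding proteins PUF-8, FBF-1 and FBF-2 restrain sperm-promoting mRNAs. LIP-1 is a phosphatase that removes the activating phosphates from the ERK kinase MPK-1, while U0126 blocks the kinase that adds them. Germlines that lack both puf-8 and lip-1 make sperm in place of oocytes, and blocking MEK is known to let them make oocytes.

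The 8 libraries at 18 h held between 10799205 and 25603070 counts assigned to genes, and replicates of 1 group correlated at 0.985 to 0.992 across genes on the log2 scale. Levels below are counts scaled to a common library size (CPM), by edgeR's trimmed mean of M values over all 52 libraries, and a gene is called where the Benjamini-Hochberg adjusted p of edgeR's quasi-likelihood test is under 0.05. Fold changes are double mutant over wild type. The median fold change over all genes in U0126 was 0.19 (log2) with this scaling and -0.13 with relative log expression (RLE) scaling, so a small difference has to be read against that shift. The second untreated wild-type library stood apart from the others. It is in no group compared here, but it entered the shared filter on low counts, the scaling and the estimate of spread. The common dispersion was 0.129 with it and 0.0626 without it, and 16462 and 16357 genes were tested.

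The targeted genes were low where the labels say they are mutant. lip-1 had 2.75 and 1.88 CPM in the double mutant in U0126, against 96.4 and 91 CPM in the wild type in U0126. puf-8 had 23.6 and 36.6 CPM in the double mutant, against 221 CPM in both wild-type libraries. The groups did not overlap for either gene, with log2 fold changes of -5.35 ± 0.58 for lip-1 (SE, adjusted p = 2.12e-07) and -2.87 ± 0.43 for puf-8 (adjusted p = 1.61e-05). The sources used here do not say which part of each transcript the mutations remove, so a read outside it checks nothing.

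In U0126, 4669 of 16462 genes (28.4%) were higher and 2076 (12.6%) were lower in the double mutant than in the wild type, 6745 (41%) in all. The large differences were mostly rises: 4098 called genes were at least 2-fold higher and 772 at least 2-fold lower, and 2260 were at least 4-fold higher against 209 that were at least 4-fold lower. Of the 4098, 233 had no count in either wild-type library, and of the 772, 38 had none in either double-mutant library, so that the fit alone sets the size of those differences. The balance of directions depended on the scaling. RLE scaling gave 3694 genes higher and 4256 lower, so that 46.5% of the calls were higher, against 69.2% with the scaling used here. All 3694 of those higher calls and all 2076 lower calls were made under both scalings. Leaving out a single library of the comparison left between 2273 and 3839 genes higher and between 1023 and 3047 lower.

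In the vehicle, the double mutant differed from the wild type at 7146 of 16462 genes (43.4%), with 3348 higher (20.3%) and 3798 lower (23.1%). This split also moved with the scaling, and with RLE scaling 3937 genes were higher and 2724 lower. The drug and vehicle comparisons share no library. Genes higher in both numbered 2885, which is 61.8% of those higher in U0126 and 86.2% of those higher in DMSO. Genes lower in both numbered 1499, which is 72.2% of those lower in U0126 and 39.5% of those lower in DMSO. Across genes, libraries of the double mutant and the wild type correlated at 0.847 to 0.886 in U0126 and at 0.73 to 0.776 in DMSO. The double mutant in U0126 stayed closer to the double mutant in DMSO, at 0.961 to 0.97, than to the wild type in the same drug. These correlations are across genes of whole worms, which are not independent, and are given as a description.

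Most oocyte genes lay below the wild type in the drug-treated double mutant without passing the test. rme-2, the yolk receptor of the oocyte surface, had 1356 and 993 CPM in the double mutant in U0126, against 1470 and 1434 CPM in the wild type in U0126. The 2 double-mutant libraries lay below both wild-type libraries, by a log2 fold change of -0.31 ± 0.76 that was not called (adjusted p = 0.769). In DMSO the same gene had 414 and 319 CPM in the double mutant, against 798 and 773 CPM in the wild type. The gap there was -1.10 on the log2 scale and was not called either.

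The RNA-binding regulators that oocytes load to control maternal mRNAs lay below the wild type by amounts that did not pass the test. oma-1, which represses maternal mRNAs in maturing oocytes, had 365 and 257 CPM in the double mutant, against 552 and 556 CPM in the wild type (log2 fold change -0.83 ± 0.43, adjusted p = 0.123). lin-41, which holds oocytes back from maturing too early, had 532 and 354 CPM in the double mutant, against 672 and 667 CPM in the wild type (-0.60 ± 0.59, adjusted p = 0.433). Both genes were lower in each double-mutant library than in either wild-type library, and neither was called. daz-1, a DAZ-family protein needed for oogenesis, had 298 and 291 CPM in the double mutant, against 529 and 519 CPM in the wild type, and nos-2, a Nanos protein, had 52.8 and 28.9 CPM, against 95.9 and 101 CPM in the wild type. Their log2 fold changes of -0.83 and -1.27 were not called (adjusted p = 0.0644 and 0.106). At the other end, puf-3 had 643 and 451 CPM in the double mutant and 594 and 590 CPM in the wild type, so that the groups overlapped. mex-3, a KH-domain repressor of maternal mRNAs, also overlapped, with 530 and 339 CPM in the double mutant and 538 and 505 CPM in the wild type.

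Over the whole list of 21 oocyte RNA regulators, none was called in either direction by edgeR, with a median log2 fold change of -0.66 beside 0.19 for all genes. All 21 fold changes were negative, between -1.27 and -0.11, and for 18 of the 21 the double-mutant libraries lay below both wild-type libraries, as they did for 5958 of all 16462 genes. At an unadjusted p under 0.05, 1 of the 21 was lower, and DESeq2 called 4 lower. The absence of calls depended on the estimate of spread and on the scaling: 4 members were lower with RLE scaling, 9 without the second untreated wild-type library, and 17 when the 8 libraries at 18 h were fitted alone. The median gap was -1.01 with RLE scaling, which shifts all genes, and -0.66 and -0.65 in the other 2 fits. Summed over the list, the double mutant held 9657 and 7177 CPM, against 12851 and 12571 CPM in the wild type, a mean of 66.2% of the wild-type level in U0126. In DMSO the double mutant held 4429 and 3411 CPM, against 6859 and 6554 CPM in the wild type, a mean of 58.4%. As a share of all counts in a library, which uses no scaling, the list took 0.788% and 0.626% in the double mutant and 1.44% and 1.46% in the wild type in U0126.

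Most genes of the oocyte membrane and eggshell lay below the wild type without being called, and a pair lay far above it. Of 17 genes, 2 (11.8%) were higher and 1 (5.88%) was lower in the double mutant in U0126. Both shares are below those of all genes, 28.4% and 12.6%. The median log2 fold change of the 17 was -0.49. The pair that rose was perm-2 and perm-4, secreted components of the permeability barrier around the egg. perm-4 had 3099 and 2591 CPM in the double mutant, against 603 and 561 CPM in the wild type (2.29 ± 0.82, adjusted p = 0.0279), and perm-2 had 2166 and 1660 CPM, against 435 and 397 CPM in the wild type (2.20 ± 0.88, adjusted p = 0.0468). Both were as high in vehicle, with 4302 and 3484 CPM of perm-4 in the double mutant in DMSO, against 784 and 755 CPM in the wild type in DMSO. Neither gene was called when any 1 of the 4 libraries was left out, at log2 fold changes of 1.85 to 2.16 for perm-4 and 1.75 to 2.03 for perm-2, or with RLE scaling (adjusted p = 0.0514 for perm-4 and 0.0812 for perm-2).

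The gene of this list that fell was cav-1, a caveolin of the oocyte membrane, with 4.17 and 0.722 CPM in the double mutant, against 20.5 and 22.1 CPM in the wild type (-3.16 ± 1.01, adjusted p = 0.0146). Without the second double-mutant library, cav-1 was no longer called, at -2.70. In DMSO cav-1 had 8.13 and 3.65 CPM in the double mutant, against 138 and 131 CPM in the wild type. The remaining 14 genes were all lower in the double-mutant libraries than in both wild-type libraries without being called. chs-1, the chitin synthase of the eggshell, had 499 and 382 CPM in the double mutant, against 1031 and 1044 CPM in the wild type. cpg-2, an eggshell chondroitin proteoglycan, had 3191 and 2516 CPM, against 3898 and 3863 CPM in the wild type. RLE scaling left 6 of the 17 lower and none higher, and with the 8 libraries alone 12 were lower and 2 higher.

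The gap in the oocyte genes was wider at the earlier times in both media. The median log2 fold change of the oocyte RNA regulators, double mutant over wild type, was -3.78 at 2 h, -2.23 at 6 h and -0.66 at 18 h in U0126. In DMSO it was -3.50 at 2 h, -2.09 at 6 h and -0.78 at 18 h. For the membrane and eggshell genes the medians were -4.17, -2.49 and -0.49 in U0126 at the same times, and their median in DMSO at 18 h was -1.10. The summed level of the 21 regulators in the double mutant was 863.9 and 792.8 CPM at 2 h, 1858 and 2057 CPM at 6 h and 9657 and 7177 CPM at 18 h in U0126. In the wild type in U0126 it was 10671 and 10393 CPM at 2 h, 9942 and 10008 CPM at 6 h and 12851 and 12571 CPM at 18 h. At 18 h both genotypes were lower in vehicle than in U0126. The double mutant in DMSO rose from 1001 and 877.4 CPM at 2 h to 4429 and 3411 CPM at 18 h. The wild type in DMSO fell from 10540 and 9933 CPM at 2 h to 6859 and 6554 CPM at 18 h. In DMSO at 18 h, 4 of the 21 regulators (19%) were called lower, beside 23.1% of all genes. Of the 17 membrane and eggshell genes, 7 (41.2%) were lower and 1 (5.88%) was higher there, beside 23.1% and 20.3% of all genes. No member of either oocyte list was called by edgeR or DESeq2 for a difference between the genotype effect in U0126 and that in DMSO at 18 h, and none had an unadjusted p under 0.05 in edgeR. With the 8 libraries at 18 h alone, 3 of the regulators differed with a higher ratio in the drug and 1 with a lower ratio, and 5 membrane and eggshell genes differed with a higher ratio.

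**Figure D1:**
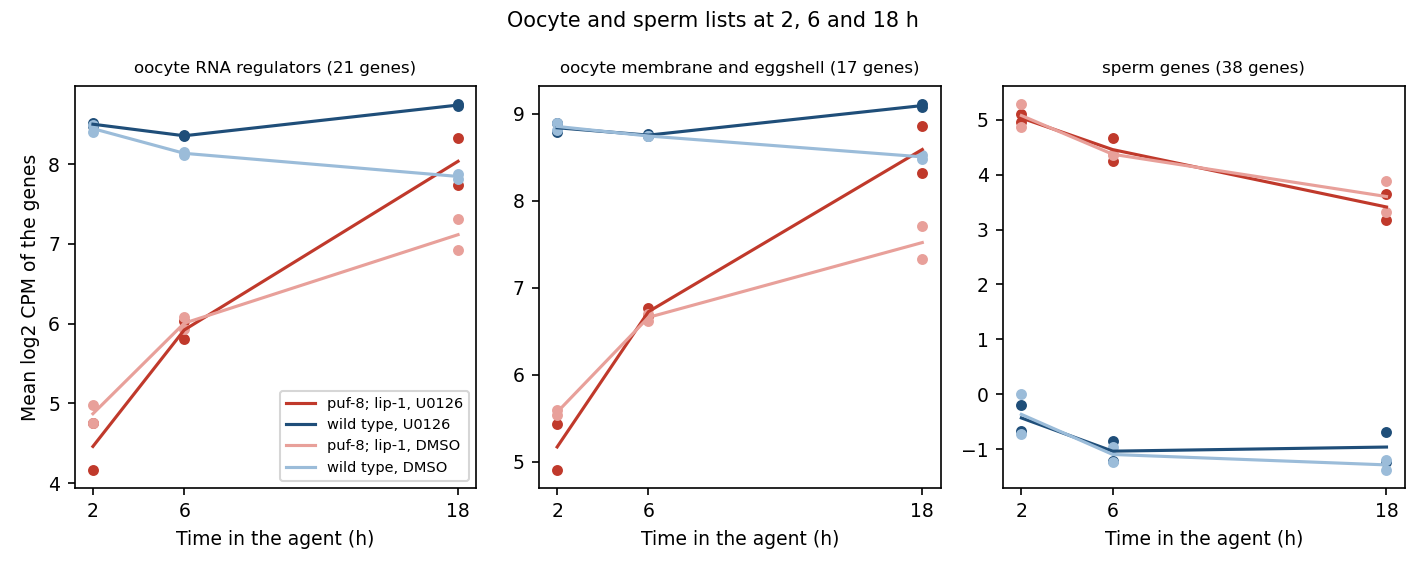
Mean log2 CPM of the oocyte RNA regulators, the oocyte membrane and eggshell genes and the sperm genes (y axes) at 2, 6 and 18 h (x axes). Points are libraries, lines join group means, and the oocyte lists of the double mutant at 18 h in U0126 lie under the wild type while its sperm genes lie far above.

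Among the gene lists, those of sperm genes and major sperm proteins had the largest median differences between the drug-treated genotypes, though many other genes also differed. gsp-3, a sperm-specific phosphatase, had 108 and 142 CPM in the double mutant in U0126, against 0.939 and 0.207 CPM in the wild type (log2 fold change 7.67 ± 1.56, adjusted p = 5.97e-04). Its paralog gsp-4 had 62.5 and 83.9 CPM, against 0.348 and 0 CPM in the wild type. The sperm Argonaute genes alg-3 and alg-4 had 80.1 and 122 CPM and 93.5 and 161 CPM in the double mutant, all above 80 CPM, while every wild-type value was under 1 CPM. None of these 4 genes overlapped between the groups.

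Of 38 sperm genes tested, 31 were higher and 1 was lower in the double mutant, with a median log2 fold change of 5.61. For 3 of them no count was found in either wild-type library, and with these at their lower bound the median was 5.20. The exception that fell was cpb-1, a cytoplasmic polyadenylation protein needed for sperm formation, with 65.4 and 79.3 CPM in the double mutant, against 137 and 132 CPM in the wild type (-0.90 ± 0.14, adjusted p = 4.06e-05). spe-44, a transcription factor of the sperm program that acts early in spermatocytes, was alike in both genotypes, with 18.6 and 21.3 CPM in the double mutant and 20.2 and 18.2 CPM in the wild type. Its log2 fold change of 0.06 ± 0.31 was not called (adjusted p = 0.9). Summed over the list, sperm genes held 923.9 and 1262 CPM in the double mutant, against 197.3 and 178.9 CPM in the wild type in U0126. In DMSO they held 1021 and 1425 CPM in the double mutant, against 95.53 and 85.09 CPM in the wild type. No sperm gene was called by edgeR for a difference between the genotype effects in drug and in vehicle, none had an unadjusted p under 0.05, and DESeq2 called 4, all with a lower ratio in the drug. With the 8 libraries at 18 h alone edgeR called 2, gsp-3 (adjusted p = 0.0156) and spe-11 (adjusted p = 0.0379), also with a lower ratio in the drug.

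The major sperm proteins, which form the motile cytoskeleton of nematode sperm, showed the same separation. Of 30 tested genes, 29 were higher and none was lower in the double mutant in U0126, and their summed level was 2412 and 3186 CPM, against 15.83 and 1.603 CPM in the wild type. The 2 wild-type libraries differed widely from each other in this sum, so that the size of the fold change rests on them, while both double-mutant libraries lay far above them. msp-31 had 115 and 157 CPM in the double mutant, against 0.348 and 0.155 CPM in the wild type. In DMSO the sum was 3176 and 4123 CPM in the double mutant, against 0.2862 and 0.1855 CPM in the wild type, where 25 of the 30 genes had no count in either library. These genes are near-identical copies of each other, so the division of reads among them is uncertain. Reads without a unique alignment have a category of their own outside the gene counts, so the sum may also be too low. edgeR called none of the 30 for a difference between the genotype effects in drug and in vehicle, and DESeq2 called 6, all with a lower ratio in the drug. With the 8 libraries at 18 h alone edgeR called some of them, among them msp-36 (adjusted p = 0.0164) and msp-45 (adjusted p = 0.0173), also with a lower ratio in the drug.

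The 8 largest rises among genes with at least 5 CPM in the higher group were all of genes with no count in either wild-type library in U0126, so that only a lower bound can be given. msrp-3 had 10.7 and 17.5 CPM in the double mutant, at least 226-fold higher than the floor of 3 counts over the wild-type group. C14A6.13 was at least 196-fold, scl-20 at least 183-fold and R03D7.8 at least 148-fold higher. nspd-3, of a nematode-specific peptide family, was at least 146-fold, ZK616.8 at least 133-fold, the histone H3 variant his-70 at least 128-fold and H08M01.1 at least 117-fold higher. All 8 were called, and each was likewise higher in the double mutant in DMSO, where scl-20 had 65.1 and 56.6 CPM in the double mutant and 0.0716 and 0 CPM in the wild type.

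Among sex determination genes, the pair that directs sperm fate rose. fog-1 had 131 and 133 CPM in the double mutant in U0126, against 37.7 and 35.6 CPM in the wild type (1.84 ± 0.28, adjusted p = 2.42e-05). fog-3 had 22.1 and 24 CPM, against 3.24 and 1.86 CPM in the wild type (3.16 ± 0.81, adjusted p = 0.00323). Neither pair of groups overlapped, and both genes were also higher in the double mutant in DMSO, with log2 fold changes of 1.40 for fog-1 and 3.47 for fog-3. Without the second wild-type library in U0126, fog-3 was no longer called, at a log2 fold change of 2.44.

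Of the 24 sex determination genes tested, 2 (8.33%) were higher and 5 (20.8%) lower, beside 28.4% and 12.6% of all genes, with a median of -0.30. tra-2, the receptor that promotes female fates, had 81.7 and 74 CPM in the double mutant, against 147 and 140 CPM in the wild type (-0.88 ± 0.29, adjusted p = 0.017), and was not called without the first double-mutant library, at -0.96. tra-3, a calpain protease of the same branch, had 50 and 38.3 CPM, against 88 and 89.9 CPM in the wild type (-1.01 ± 0.21, adjusted p = 5.52e-04). In DMSO tra-3 ran the other way without being called, with 50.3 and 43.1 CPM in the double mutant and 38.3 and 32.8 CPM in the wild type, and its 2 genotype effects differed (adjusted p = 0.0101). sel-10, an F-box protein of ubiquitin ligases, had 159 and 165 CPM, against 270 and 263 CPM in the wild type. fem-3, which promotes male fates and whose mRNA is a target of FBF, had 56.4 and 51.8 CPM in the double mutant, against 97.3 and 96.7 CPM in the wild type (-0.84 ± 0.35, adjusted p = 0.0555), and was called with RLE scaling (adjusted p = 0.00781). tra-1, the last transcription factor of the pathway, overlapped between genotypes, with 59.5 and 51.3 CPM in the double mutant and 59.6 and 52.8 CPM in the wild type. Under RLE scaling 12 of the 24 genes were lower.

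**Figure D2:**
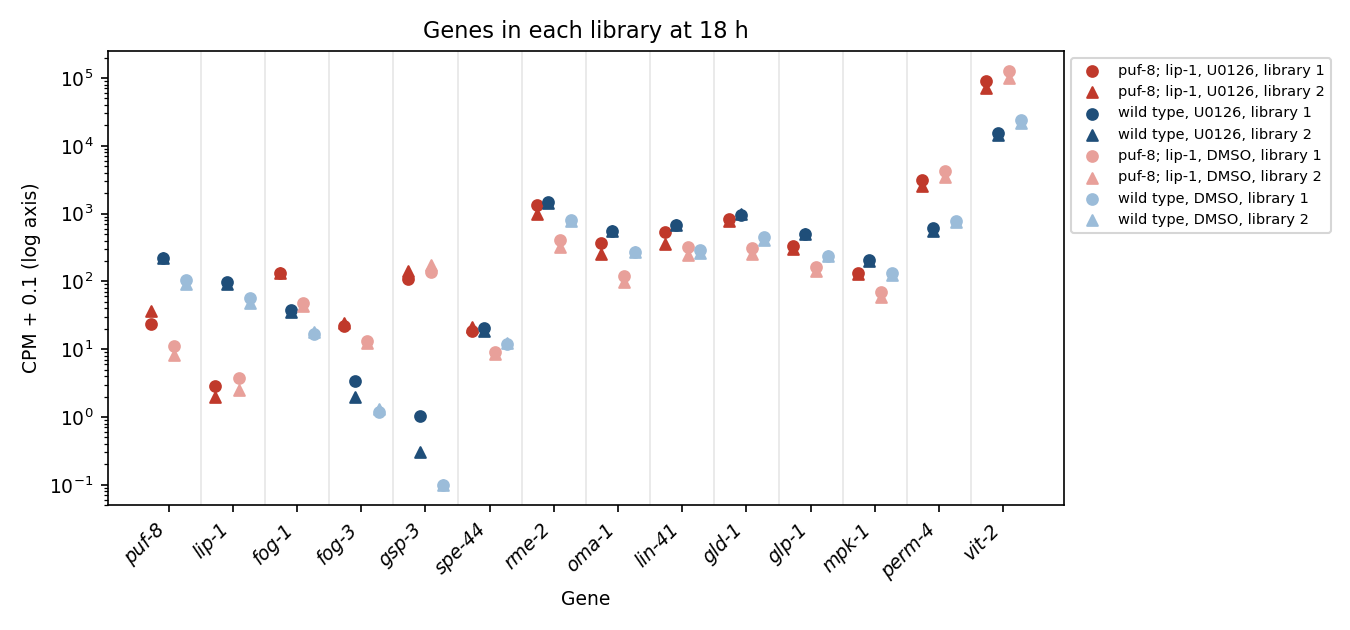
CPM plus 0.1 on a log axis (y) of 14 genes (x) in each of the 8 libraries at 18 h, with colours for the groups and shapes for the replicates. fog-1, fog-3, gsp-3, perm-4 and vit-2 are higher in both double-mutant groups, puf-8 and lip-1 are lower, and spe-44, rme-2 and gld-1 lie close together in U0126.

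Regulators of germline stem cells and meiotic entry lay below the wild type, mostly without passing the test. gld-1, a translational repressor that drives meiotic entry and oocyte differentiation, had 828 and 778 CPM in the double mutant, against 942 and 986 CPM in the wild type (-0.26 ± 0.50, adjusted p = 0.694). glp-1, the Notch receptor of the stem cells, had 336 and 303 CPM, against 500 and 501 CPM in the wild type (-0.65 ± 0.47, adjusted p = 0.275). fbf-1 had 37.1 and 39.4 CPM, against 52.7 and 51.9 CPM in the wild type, and fbf-2 had 26.8 and 23.1 CPM, against 26.9 and 27.7 CPM in the wild type. None of these 4 genes was called, though each was below the wild type in both double-mutant libraries. With RLE scaling fbf-1 was called (adjusted p = 0.025), and without the second untreated wild-type library glp-1 was (adjusted p = 0.00243). All 14 genes tested had negative fold changes, between -2.87 and -0.13, and 4 (28.6%) were lower, beside 12.6% of all genes: puf-8 itself, lag-1, the transcription factor of Notch signalling, gld-3, a cofactor of cytoplasmic polyadenylation, and lst-1, a Notch target. gld-3 was not called without the first double-mutant library, at -0.89. lag-1 had 104 CPM in both double-mutant libraries, against 187 and 185 CPM in the wild type.

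In the RAS-ERK pathway, which the drug blocks, 2 of 23 genes (8.7%) were higher and 4 (17.4%) lower, beside 28.4% and 12.6% of all genes. The mutated lip-1 was among the 4. mpk-1, the ERK kinase, had 135 and 128 CPM in the double mutant, against 207 and 197 CPM in the wild type (-0.62 ± 0.28, adjusted p = 0.0718). The genes that fell besides lip-1 were sur-6, a phosphatase subunit with 178 and 173 CPM in the double mutant and 308 and 312 CPM in the wild type, lin-45, the RAF kinase, and let-60, the RAS protein. let-60 had 65 and 68.4 CPM in the double mutant, against 88.7 and 95 CPM in the wild type. let-23, the EGF receptor, rose, with 25.8 and 23 CPM in the double mutant, against 12.7 and 13.5 CPM in the wild type, and so did lin-1, an ETS transcription factor. let-23 was not called without the second double-mutant library or without either wild-type library, at 0.55 to 0.63. Under RLE scaling 13 of the 23 were lower, mpk-1 among them (adjusted p = 0.00595), and 1 was higher. These are mRNA levels and say nothing of the activity of the kinases.

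Genes of meiotic chromosomes were mostly lower in the double mutant, with fold changes of -1.11 to 0.31 for those of the axis and synapsis and of -1.14 to -0.22 for those of recombination. Of 25 genes of the meiotic axis and synapsis, 14 were lower and none higher (median -0.61), and of 24 genes of meiotic recombination 13 were lower and none higher (median -0.66), beside 12.6% of all genes. syp-2, of the synaptonemal complex, had 31.5 and 34.1 CPM in the double mutant, against 65.5 and 70 CPM in the wild type (-1.05 ± 0.22, adjusted p = 6.32e-04). him-3, of the chromosome axis, had 77.1 and 93.5 CPM, against 134 and 130 CPM in the wild type (-0.63 ± 0.14, adjusted p = 0.00107). spo-11, which makes the meiotic double-strand breaks, had 25.4 and 27.5 CPM, against 55.7 and 52.9 CPM in the wild type (-1.04 ± 0.28, adjusted p = 0.00513). All 24 recombination genes and 24 of the 25 axis and synapsis genes were lower in both double-mutant libraries than in both wild-type libraries, as were 5958 of all 16462 genes. RLE scaling put 21 genes of each list lower. In DMSO 9 of the 25 (36%) and 8 of the 24 (33.3%) were lower, beside 23.1% of all genes. There, 1 of the 25 (4%) was higher, beside 20.3% of all genes.

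DNA replication genes and germline granule genes followed the same direction. All 30 replication genes lay below the wild type in both double-mutant libraries, as did 5958 of all 16462 genes. Their median was -0.76, and 8 (26.7%) were called lower, beside 12.6% of all genes. orc-5, of the origin recognition complex, had 54.5 and 56.7 CPM in the double mutant, against 107 and 108 CPM in the wild type (-0.95 ± 0.22, adjusted p = 0.0014). As many as 20 were called with RLE scaling, and 28 without the second untreated wild-type library. Of 21 P granule and small RNA genes, 4 (19%) were lower and 1 (4.76%) higher, beside 12.6% and 28.4% of all genes. The gene that rose was glh-1, the Vasa-type helicase of P granules, with 473 and 476 CPM in the double mutant, against 324 and 303 CPM in the wild type (0.60 ± 0.20, adjusted p = 0.019), and it was not called without any 1 of the 4 libraries, at 0.16 to 0.60, or with RLE scaling (adjusted p = 0.315). mut-16, a scaffold of small RNA amplification, had 164 and 171 CPM in the double mutant, against 270 and 266 CPM in the wild type.

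**Figure D3:**
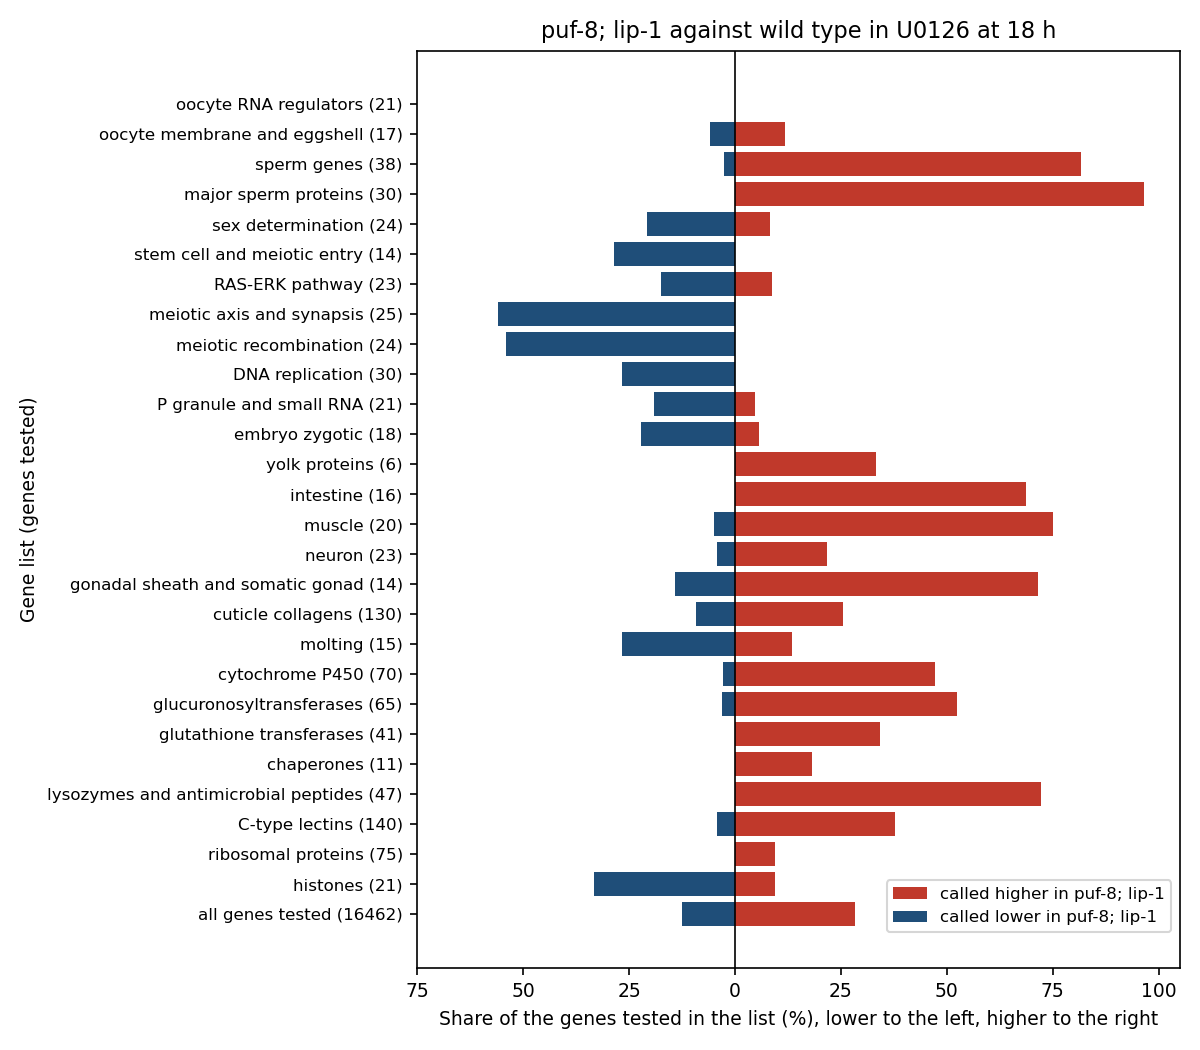
Share of the tested genes of each list (y axis, with the number of genes) called higher (red, right) or lower (blue, left) in puf-8; lip-1 than in wild type in U0126 at 18 h, in percent (x axis). Sperm, muscle, intestine and lysozyme genes lean higher, meiotic genes lean lower and no oocyte RNA regulator was called.

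Many somatic genes also differed between the genotypes. The yolk proteins, made in the intestine and taken up by oocytes, took 21.8% and 19.1% of all counts in the double mutant in U0126, against 5.17% and 5.16% in the wild type in U0126. In DMSO they took 29.4% and 27.9% in the double mutant, against 9.34% and 8.26% in the wild type. vit-2 had 91533 and 71660 CPM in the double mutant, against 15177 and 14581 CPM in the wild type (2.46 ± 0.98, adjusted p = 0.0473). All 6 genes were higher in each double-mutant library than in either wild-type library, and 2 of them were called (vit-2 and vit-6). Neither was called with RLE scaling or when any 1 of the 4 libraries was left out, at 2.04 to 2.27 for vit-2 and 2.12 to 2.41 for vit-6. A share this large lowers the share left to every other gene, which the scaling is meant to offset.

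Most intestinal genes other than those of yolk rose. Of 16 genes tested, 11 were higher and none lower in U0126, beside 28.4% of all genes, with a median of 1.52. ges-1, a gut esterase, had 62.6 and 73.6 CPM in the double mutant, against 15.6 and 18.8 CPM in the wild type (1.99 ± 0.19, adjusted p = 4.77e-08). cpr-6, a cathepsin B protease, had 1778 and 1676 CPM, against 367 and 376 CPM in the wild type, and itr-1, the inositol trisphosphate receptor, had 222 CPM in both double-mutant libraries, against 67.9 and 71.6 CPM in the wild type. The called genes were higher under each scaling except ifb-2 and ifo-1, which were not called with RLE scaling. In DMSO 7 of the 16 (43.8%) were higher and 3 (18.8%) lower, beside 20.3% and 23.1% of all genes, with a median of 0.33.

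Muscle genes rose with them: 15 of 20 (75%) were higher and 1 (5%) lower, beside 28.4% and 12.6% of all genes, with a median of 1.91. cpn-3, a calponin, had 313 and 321 CPM in the double mutant, against 58.1 and 55.6 CPM in the wild type (2.48 ± 0.30, adjusted p = 8.60e-07). unc-27, a troponin I, had 550 and 625 CPM, against 109 and 98.9 CPM in the wild type. The gene that fell was pat-3, an integrin subunit, with 134 and 144 CPM in the double mutant, against 250 and 249 CPM in the wild type. Of 14 genes of the gonadal sheath and somatic gonad, 10 (71.4%) were higher and 2 (14.3%) lower. nmy-1, a non-muscle myosin of the sheath, had 397 and 368 CPM, against 161 and 159 CPM in the wild type, and mig-6, an extracellular matrix protein, had 666 and 701 CPM, against 202 and 199 CPM in the wild type. inx-14, a gap junction protein of the germ cells, was among those that fell, with 101 and 94.7 CPM, against 190 and 191 CPM in the wild type. Of 23 neuronal genes, 5 (21.7%) were higher and 1 (4.35%) lower, both below the shares of all genes. None of the 23 was higher with RLE scaling, and 2 were lower.

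Lysozyme and antimicrobial peptide genes were mostly higher in the double mutant. Of 47 tested, 34 (72.3%) were higher and none lower, beside 28.4% higher and 12.6% lower over all genes, with a median of 2.09. lys-7, a lysozyme, had 668 and 287 CPM in the double mutant in U0126, against 21.5 and 26.4 CPM in the wild type (4.32 ± 0.44, adjusted p = 9.05e-08), and in DMSO 4891 and 4033 CPM in the double mutant, against 255 and 276 CPM in the wild type. Among 140 C-type lectins 53 (37.9%) were higher and 6 lower, and among 65 glucuronosyltransferases 34 (52.3%) were higher and 2 lower. Among 41 glutathione transferases 14 (34.1%) were higher and none lower, a share higher that is near that of all genes. gst-4, an oxidative stress reporter gene, had 117 and 158 CPM in the double mutant, against 19.4 CPM in both wild-type libraries.

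Of 70 cytochrome P450 genes, 33 (47.1%) were higher and 2 (2.86%) lower in U0126, beside 28.4% and 12.6% of all genes. cyp-34A8 had 59.2 and 65.4 CPM in the double mutant, against 15.3 and 13.5 CPM in the wild type (2.11 ± 0.23, adjusted p = 1.78e-07). cyp-35A2 had 883 and 1159 CPM in the double mutant in U0126, against 380 and 375 CPM in the wild type in U0126, while in DMSO the genotypes overlapped at 40.9 and 50.5 CPM in the double mutant and 46.8 and 38.8 CPM in the wild type. In DMSO 25 of the 70 (35.7%) were higher and 9 (12.9%) lower, beside 20.3% and 23.1% of all genes.

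Collagens were 3 of the 8 largest falls. hch-1, a hatching metalloprotease, had 0 and 0.0722 CPM in the double mutant in U0126, against 33.2 and 37.9 CPM in the wild type (adjusted p = 1.20e-04). dpy-14, a collagen, had 0.509 and 1.15 CPM, against 33.8 and 39.1 CPM in the wild type, and col-167 and col-147, also collagens, had at most 0.722 CPM in the double mutant, against 14.9 to 19.6 CPM in the wild type. clec-266, tag-293 and Y110A2AL.4 completed the 8 largest falls with lip-1. Except for lip-1, each of the 8 was higher still in the wild type in DMSO, where hch-1 had 75 and 79.1 CPM and dpy-14 had 249 and 285 CPM. The 5 defining markers of the molting epidermis summed to 33.79 and 33.06 CPM in the double mutant and to 82.25 and 97.23 CPM in the wild type in U0126. Most of the double-mutant sum was nas-37, which ran the other way, with 27.2 and 26.5 CPM, against 5.67 and 7.34 CPM in the wild type. mlt-10, mlt-11, noah-1 and ptr-4 were lower in both double-mutant libraries than in both wild-type libraries. The markers of early embryos, of which 4 of 7 were tested, summed to 4.173 and 4.764 CPM in the double mutant and to 4.279 and 3.465 CPM in the wild type. Most of the double-mutant sum came from elt-7, an intestinal GATA factor, with 3.97 and 4.48 CPM there and 1.7 and 1.81 CPM in the wild type. end-3 ran the other way, with 0 and 0.217 CPM in the double mutant, against 2.23 and 1.45 CPM in the wild type. The near-equal sums therefore do not show that these markers were alike. Of the 7, end-1, med-1 and tbx-37 had no count in either double-mutant library and hlh-27 had none in either wild-type library. The part of either tissue in these falls was not tested.

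Over the whole list of 130 collagens, 33 (25.4%) were higher and 12 (9.23%) lower in U0126, which is near the shares of all genes. col-139 had 95.7 and 149 CPM in the double mutant, against 7.62 and 7.19 CPM in the wild type (4.05 ± 0.40, adjusted p = 5.39e-08). Of 15 molting genes 2 (13.3%) were higher and 4 (26.7%) lower, beside 28.4% and 12.6% of all genes. The genes that rose were nas-37 (2.04 ± 0.55, adjusted p = 0.00507) and mlt-7 (1.22 ± 0.41, adjusted p = 0.0209). mlt-7 was not called with RLE scaling (adjusted p = 0.0733). nas-37 was not called in 3 of the 8 fits that left out 1 library, at 1.58 to 1.85, and mlt-7 in 6 of them, at 0.74 to 1.24. noah-1, a matrix protein of the molting cuticle, had 4.28 and 4.48 CPM in the double mutant, against 41.9 and 53.1 CPM in the wild type (-3.44 ± 1.11, adjusted p = 0.0161), and was not called without either double-mutant library, at -3.40 and -3.81. Among 21 histone genes 2 (9.52%) were higher and 7 (33.3%) lower. his-60 had 0.611 and 0.866 CPM in the double mutant, against 7.9 and 7.24 CPM in the wild type. Replication-dependent histone mRNAs mostly lack a polyA tail, so a polyA library reads them only in part, and their copies are near-identical.

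The directions were also unevenly spread over the chromosomes. The X chromosome of Caenorhabditis elegans carries few sperm genes and is largely silent in germ cells other than oocytes. In U0126, 34.2% of the 2246 X-linked genes tested were higher and 4.32% were lower in the double mutant, with a median log2 fold change of 0.61. On the autosomes the share higher ran between 23.1% on chromosome III and 31.9% on chromosome IV, and the share lower between 10.8% on chromosome V and 18.1% on chromosome I. In DMSO 17.9% of the X-linked genes were higher and 19% lower, and with RLE scaling 23.1% were higher and 15.1% lower. In U0126 RLE scaling moved the medians of all 6 chromosomes down, and the X then had 26% of its genes higher and 9.53% lower, against 18.5% to 25.6% higher and 19.5% to 37.6% lower on the autosomes. These shares are given as a description, since genes of 1 chromosome are not independent.

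**Figure D4:**
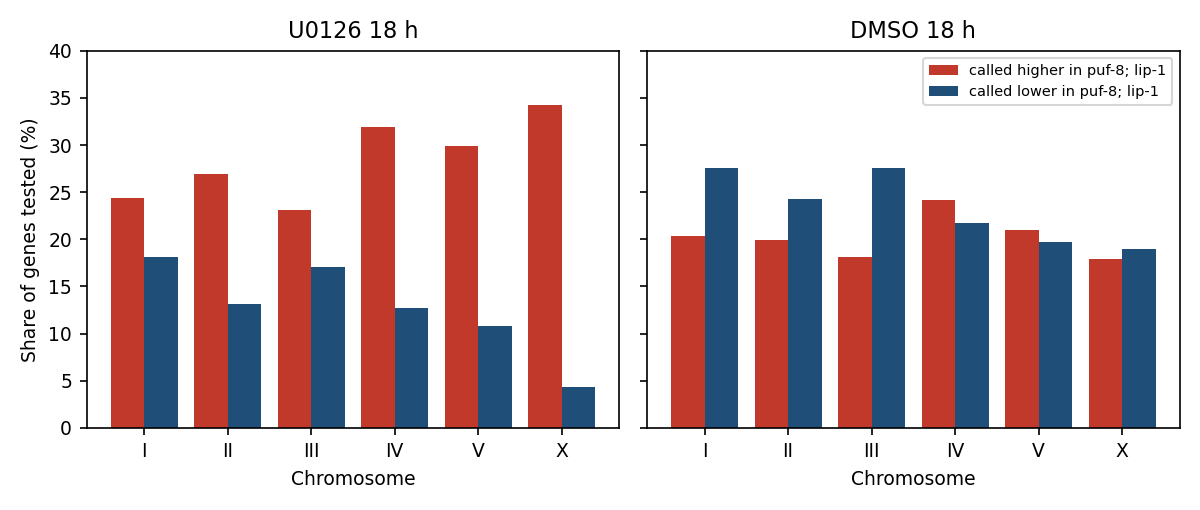
Share of the tested genes of each chromosome (x axes) called higher (red) or lower (blue) in puf-8; lip-1 than in wild type at 18 h in U0126 (left) and DMSO (right), in percent (y axis), with the scaling used for the main values. The X chromosome has the widest gap between higher and lower calls in U0126 (34.2% and 4.32%) and a narrow one in DMSO (17.9% and 19%).

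The genotype effect itself, double mutant over wild type, was compared between U0126 and DMSO at 18 h with an interaction term. It differed at 294 of 16462 genes (1.79%), of which 268 (1.63%) were above 0, meaning a higher ratio in the drug, and 26 (0.158%) were below 0. This balance also turned with the scaling, and the median of the difference over all genes was 0.30 with the scaling used here and -0.23 with RLE scaling. There, 65 genes were above 0 and 454 below 0. All 65 of those above 0 and all 26 of those below 0 in the fit used here were called under both scalings. A single library left out gave between 26 and 194 calls.

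cyp-35A3 and cyp-35A4, xenobiotic-inducible cytochrome P450 genes, were among the 4 largest positive differences, which phat-4 led. cyp-35A4 had 356 and 566 CPM in the double mutant in U0126, against 205 and 212 CPM in the wild type in U0126. In DMSO it had 0.0856 and 0 CPM in the double mutant, against 1.57 and 1.39 CPM in the wild type. The double mutant was thus the higher genotype in the drug and the lower one in vehicle (difference 5.90, adjusted p = 0.00487). cyp-35A3 showed the same order, with 818 and 1132 CPM in the double mutant and 394 and 395 CPM in the wild type in U0126, and 0.0856 and 0.406 CPM in the double mutant and 3.86 and 3.9 CPM in the wild type in DMSO. cut-3, a cuticlin of the cuticle, had 109 and 141 CPM in the wild type in DMSO and under 3 CPM in each library of the other groups. Leaving out 1 library ended the call of the difference for cyp-35A4 in 5 of 8 cases, at 5.02 to 5.50, for cyp-35A3 in 6 of 8, at 4.53 to 4.86, and for cut-3 in 4 of 8, at 4.66 to 5.09. For phat-4 it ended the call in 7 of 8 cases, at 4.71 to 7.39. W01C9.2, which kept its call in all 8, was the opposite case, with 66.7 and 68.9 CPM in the wild type in U0126 and 5.05 to 7.6 CPM in the libraries of the other groups.

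**Figure D5:**
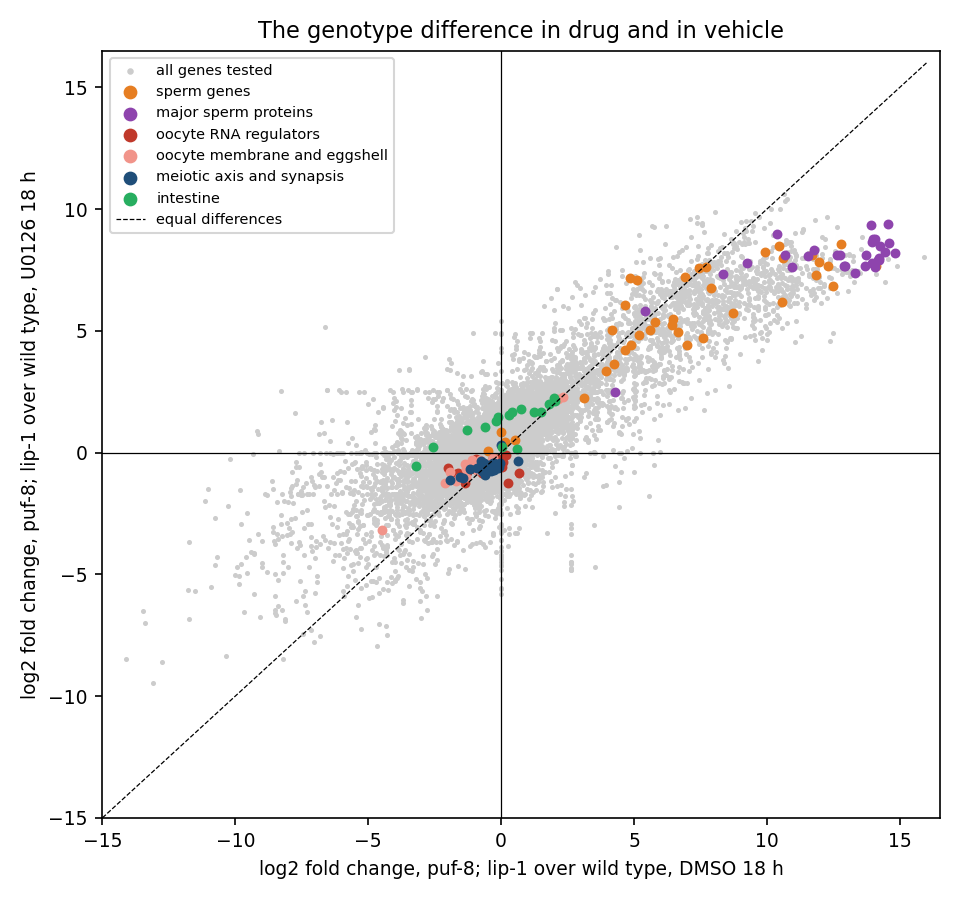
Log2 fold change of puf-8; lip-1 over wild type at 18 h in U0126 (y axis) against that in DMSO (x axis) for all 16462 genes tested, with 6 gene lists coloured and a dashed line of equal differences. Most genes of the meiotic axis and synapsis lie a little under 0 on both axes, and most genes of the sperm lists lie far to the upper right, where a gene without counts in wild-type DMSO libraries takes an extreme x value set by the fit.

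The 2 double-mutant libraries in U0126 differed from each other in the germline groups. The first held 9657 CPM of oocyte RNA regulators and 923.9 CPM of sperm genes, and the second held 7177 CPM of oocyte RNA regulators and 1262 CPM of sperm genes. The wild-type libraries in U0126 differed less, at 12851 and 12571 CPM and at 197.3 and 178.9 CPM. The counts of the double-mutant pair differed by 21 times the sampling noise expected of copies of 1 library (chi-square per degree of freedom), against 2.70 times for the wild-type pair, so neither pair is 1 library given in duplicate.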

How the data were processed

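Per-gene raw read counts, 1 table per library, were deposited by the authors. CASAVA, TopHat and DESeq and the build ce10 are named in the submitters' processing notes, without versions or settings, and neither the read counter nor strand use is given in the sources used here. Per the labels, libraries were made from polyA RNA with a TruSeq kit. The 5 category lines at the end of each table were left out. Among the 8 libraries at 18 h, reads outside any gene were 48.5% to 50.2% and ambiguous reads 0.311% to 0.449% of the sum of gene, outside and ambiguous counts. Of 45461 gene IDs, 44936 were matched to names through the Ensembl annotation.

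Genes with at least 1 CPM in at least 2 of 52 libraries (16462) were fitted in R 4.3.3 with edgeR 4.0.16: TMM scaling, 1 term per group for 29 groups, and the quasi-likelihood F test with 23 residual degrees of freedom and Benjamini-Hochberg adjustment over all genes tested. Standard errors were derived from the fold change and the F statistic. All libraries share 1 estimate of spread, since each group compared has 2 libraries. Scripts were tested on simulated counts. The members, the 27 gene lists and the tests were chosen with earlier results of these data known. Named genes were the 8 largest rises and the 8 largest falls without overlap between groups, where the higher one averaged 5 CPM or more, then the 3 list members with the smallest adjusted p, 17 regulators and markers, and the 4 largest differences each way between drug and vehicle. Further list members named were chosen after their values were seen. DESeq2 1.42.0, other scalings, filters and left-out libraries were tried.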

Additional observations from a re-analysis of the deposited data

Results flagged for a closer look

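The genotype effect, double mutant over wild type, differed between U0126 and DMSO at 18 h by the interaction term of edgeR (adjusted p under 0.05) for 16 of the genes that the rule for named genes gave, each shown as the log2 difference of the effects, drug minus vehicle. Positive differences were 6.27 for phat-4, 5.90 for cyp-35A4, 5.32 for cut-3, 5.30 for cyp-35A3, 1.80 for ugt-48, 1.72 for clec-56, 1.51 for gst-27, 1.34 for cyp-35A2, 1.32 for mec-12, 1.27 for rpl-11.2 and 0.78 for unc-18. Negative differences were -5.03 for Y32G9A.5, -4.74 for sod-5, -3.26 for W01C9.2, -3.03 for C29A12.2 and -1.41 for tra-3. Leaving out each of the 8 libraries at 18 h in turn ended the call in 8 of 8 cases for C29A12.2 (-3.63 to -2.80), mec-12 (0.71 to 1.35) and unc-18 (0.20 to 0.88), and in 7 for phat-4 (4.71 to 7.39) and cyp-35A2. It did so in 6 for Y32G9A.5, cyp-35A3 and rpl-11.2, in 5 for sod-5, cyp-35A4, ugt-48 and gst-27, in 4 for cut-3 and clec-56, in 1 for tra-3 and in none for W01C9.2.

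sod-5, a superoxide dismutase, overlapped between genotypes in U0126, with 1.93 and 0.433 CPM in the double mutant and 0.835 and 1.19 CPM in the wild type. In DMSO it had 7.96 and 4.97 CPM in the double mutant, against 0.286 and 0.139 CPM in the wild type. ugt-48, a glucuronosyltransferase, had 13.9 and 17.5 CPM in the double mutant in U0126, against 4.11 and 4.45 CPM in the wild type, while in DMSO it had 13.2 and 12.4 CPM in the double mutant and 11.4 and 12.8 CPM in the wild type. gst-27, a glutathione transferase, had 30.8 and 37.3 CPM in the double mutant in U0126, against 14.9 CPM in both wild-type libraries, and in DMSO 38.3 and 35.6 CPM in the double mutant, against 45.3 and 46.8 CPM in the wild type. Under RLE scaling the differences of unc-18, mec-12, cyp-35A2 and rpl-11.2 were not called.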

How the results depend on the processing

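The count of genes lower in the double mutant in U0126 (2076) became 4256 with RLE scaling, 4333 with DESeq2, 3656 without the second untreated wild-type library, 4281 with the 8 libraries at 18 h alone and 772 where a call also needed a 2-fold change. The count of genes whose genotype effect differed between drug and vehicle (294) became 519, 1048, 1508 and 3631 in the first 4 of these settings and 13 without a filter on low counts. At an unadjusted p under 0.05 the difference was found at 2571 genes. The cause of these shifts was not tested, except that the fits without the untreated library and with 8 libraries rest on a smaller spread. Leaving out 1 of the 8 libraries at 18 h gave 2273 to 4581 genes higher and 1023 to 3850 lower in U0126, 4045 to 7007 called in DMSO and 26 to 194 for the difference. The low counts in DMSO, 4045 to 4339, came without either wild-type DMSO library or the second double-mutant one. A group left with 1 library was assumed to vary like the others. Under these settings no named gene changed sign while called in either fit.

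Replicate numbers are shared between groups, but nothing in the labels says that they pair samples. Deviations of same-numbered libraries correlated at -0.127 between the genotypes in U0126 and 0.003 in DMSO, at 0.424 between drug and vehicle in the double mutant and at -0.003 in the wild type. With a replicate block, 4517 genes were higher and 1982 lower in U0126, 6948 were called in DMSO and 218 differed between drug and vehicle. With crossed pairs, tried after seeing the data, 4541 were higher and 1992 lower. With between 10799205 and 25603070 counts a library, genes near 0 in a group are limited by depth.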

Other observations

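Ribosomal protein genes differed little between the genotypes in U0126. Of 75 tested, 7 (9.33%) were higher and none was lower in the double mutant, beside 28.4% and 12.6% of all genes. The median log2 fold change was 0.32, and RLE scaling gave 5 higher and 2 lower with a median of -0.02. With the 8 libraries at 18 h alone 55 were higher and 1 lower. rpl-25.1 had 191 and 185 CPM in the double mutant in U0126, against 43.5 and 46.3 CPM in the wild type in U0126 (2.07 ± 0.32, edgeR adjusted p = 2.72e-05). Among 11 cytosolic chaperones 2 (18.2%) were higher and none was lower, beside 28.4% and 12.6% of all genes. Their median was 0.28, while RLE scaling gave 1 higher, 1 lower and a median of -0.07. hsp-1, a constitutive HSP70, had 3428 and 3387 CPM in the double mutant, against 2157 and 2057 CPM in the wild type (0.69 ± 0.24, adjusted p = 0.022). It was not called with RLE scaling (adjusted p = 0.22), or in 6 of the 8 fits that left out 1 library, at 0.27 to 0.69.

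Of 18 genes first transcribed in embryos, 1 (5.56%) was higher and 4 (22.2%) were lower in the double mutant in U0126, beside 28.4% and 12.6% of all genes. Their median was -0.81. In DMSO none was higher and 9 (50%) were lower, beside 20.3% and 23.1% of all genes. elt-6, a GATA factor, had 1.12 and 1.01 CPM in the double mutant in U0126, against 3.41 and 3.47 CPM in the wild type (-1.69 ± 0.36, adjusted p = 8.36e-04). elt-7, a GATA factor of the intestine, was the gene that rose, with 3.97 and 4.48 CPM in the double mutant, against 1.7 and 1.81 CPM in the wild type, and it was not called in 3 of the 8 fits that left out 1 library, at 0.82 to 0.93.

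Genes were also grouped by the stem of their names, for the 144 stems with at least 10 genes tested, and those given here were picked after their values were seen. Over all genes 28.4% were higher and 12.6% lower in U0126, and 20.3% were higher and 23.1% lower in DMSO. Of 20 genes named vha, subunits of the vacuolar proton pump, 14 were higher and 1 was lower in the double mutant in U0126, and none was higher and 11 were lower in DMSO. RLE scaling gave 5 higher and 4 lower in U0126, and none higher and 3 lower in DMSO. No test was made of the difference between drug and vehicle for this group as a whole. Of 31 carboxylesterase genes (cest), 23 were higher and none was lower in U0126 (22 and none with RLE scaling), and 15 were higher and 2 lower in DMSO. Of 13 acyl-CoA dehydrogenase genes (acdh), 10 were higher and none was lower in U0126 (8 and 1 with RLE scaling), and 6 were higher and 2 lower in DMSO. Of 20 Mediator genes (mdt), 10 were lower and none was higher, and of 13 genes of asparagine-linked glycosylation (algn) 9 were lower and none was higher. RLE scaling gave 16 of the mdt genes and 13 of the algn genes lower. In DMSO 11 of the mdt genes and 8 of the algn genes were lower.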
